A study of Mus musculus with 6 samples.

Results

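Genes that mark the excitatory neurons of the cerebral cortex and hippocampus were examined in the forebrain of juvenile Slc13a4+/- and wild-type mice, as a measure of the regional and layer content of each dissected sample. The 34 genes were taken from a fixed list of symbols and placed in 6 groups by role: pallial identity factors, vesicular glutamate transporters, genes of the upper layers 2 to 4, of layer 5, of layers 6 and 6b, and of the hippocampal fields. All 34 were found among the 35523 genes that had transcripts in the quantification files, and all 34 passed the filter on low counts that left 17096 genes. The listed symbol Ctgf stands in the GENCODE M21 annotation as Ccn2, which is the name used here.

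Whole forebrains were taken at postnatal day 20 (P20) from 3 mice lacking one allele of Slc13a4, which the labels call Nas2Del +/- Het, and from 3 wild-type mice, all of strain C57BL/6 and without further treatment. Slc13a4 encodes a sodium-coupled sulfate transporter, and the comparison asked which transcripts differ in the postnatal forebrain when 1 of the 2 alleles is missing. The loss of the allele is not restricted to any cell type. Total RNA from each mouse gave 1 library, so the replicates are separate animals. In the text below, 3 values for a genotype always stand in the order Nas2Del_Het_1024, Nas2Del_Het_1025 and Nas2Del_Het_1027, or Nas2Del_WT_1016, Nas2Del_WT_1018 and Nas2Del_WT_1026.

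Excitatory projection neurons of the cortex and hippocampus arise from progenitors of the dorsal telencephalon, or pallium, and use glutamate as their transmitter. Transcription factors such as EMX1, LHX2, NEUROD2 and TBR1 establish and maintain their identity, and a further set of genes separates the neurons of the upper layers, which connect cortical areas, from the deep-layer neurons that project to thalamus, brainstem and spinal cord. In bulk tissue the level of such a gene reflects both how many of the neurons a sample holds and how much of the transcript each one carries, and fewer cells of a type cannot be told apart from less RNA per cell.

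Sequencing depth lay between 60340337 and 80410582 estimated counts per mouse. Slc13a4, the targeted gene, was at 5.60, 6.57 and 5.41 counts per 1000000 (CPM, scaled by the trimmed mean of M-values) in the Slc13a4+/- mice and at 10.4, 9.36 and 8.23 CPM in the wild-type mice, without overlap. As a check of the tissue label, the pallial gene Emx1 was at 9.61 to 12.2 CPM, and the hindbrain genes Hoxb3 and Hoxb5 reached no more than 0.0300 and 0.0165 CPM. Other genes of the cerebellum and hindbrain list were higher. Cbln1 was at 15.8 to 18.0 CPM, and En1 and En2 reached 0.601 and 0.91 CPM. Gabra6 and Pcp2 were highest in Nas2Del_Het_1024, at 0.721 and 0.618 CPM, and reached 0.182 and 0.165 CPM in the other mice. Wild-type mouse Nas2Del_WT_1026 stood furthest from the other mice on the first principal component (-32.8, with 36.1% of the variance), opposite Nas2Del_WT_1016 (25.6). Ddx3y, a Y-linked gene, was at 105 CPM in Nas2Del_WT_1016 and at or under 0.0331 CPM in the other 5 mice. The only mouse with high Ddx3y was thus wild-type, so sex was not balanced between the genotypes, and it did not enter the fits. The authors describe the controls as wild-type littermates. The labels do not give the litter of each mouse, so it did not enter the fits either.

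The excitatory neuron genes differed little between the genotypes. None of the 34 passed an adjusted p of 0.1 in the edgeR quasi-likelihood test with Benjamini-Hochberg adjustment over all tested genes, where 1 gene in all, Eed, was called (0.00585%), and none passed in the DESeq2 Wald test, which called 86 genes (0.487%). Fold changes are given on the log2 scale as Slc13a4+/- against wild-type. They ranged from -0.21 to 0.16 over the 34 genes with a median of 0.00, the same as the median over all tested genes, and 16 were above and 18 below 0. At an unadjusted p under 0.05 edgeR returned 4 of the 34 (11.8%) against 9.15% of all tested genes: Mef2c was higher (1 member, against 4.98% of all tested genes on that side) and Mdga1, Ccn2 and C1ql2 were lower (3 members, against 4.17%). The 3 Slc13a4+/- mice lay entirely below the 3 wild-type mice for Mdga1, Ccn2 and C1ql2 and entirely above for no member, so 8.82% of members did not overlap against 15.0% of all tested genes (7.26% above and 7.7% below). The 95% interval of the fold change stayed within 1.2-fold in either direction (0.26 on the log2 scale) for 24 of the 34 members (70.6%), compared with 59.5% of all tested genes. Most members are well expressed, however, and among genes with a mean over 10 CPM the intervals of 23 of 30 members (76.7%) and of 89.6% of all tested genes stayed within 1.2-fold.

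**Figure D1:**
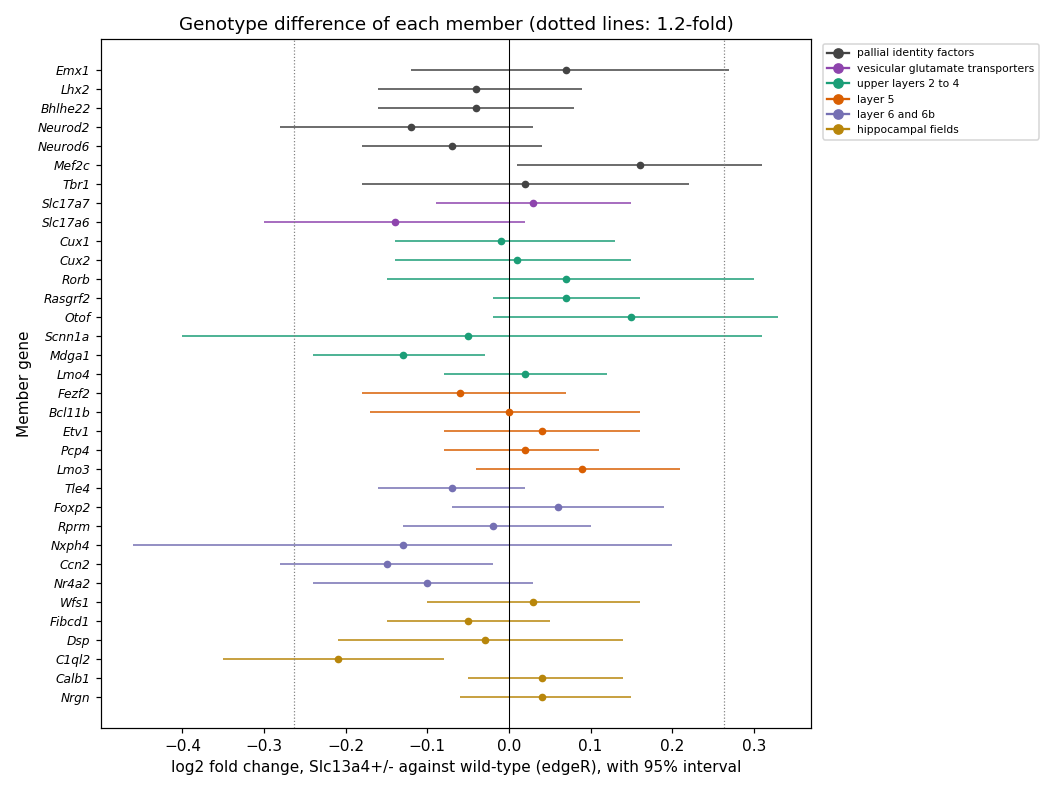
Genotype difference of each of the 34 excitatory neuron genes: points are edgeR log2 fold changes (Slc13a4+/- against wild-type, 3 mice each) on the horizontal axis, lines are 95% intervals, colours mark the role, and dotted lines mark 1.2-fold. The points lie between -0.21 (C1ql2) and 0.16 (Mef2c), and 24 of the 34 intervals stay within the dotted lines.

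For the pallial identity factors, the most abundant transcript was Mef2c, a MADS-box factor of maturing neurons, with a mean of 387 transcripts per 1000000 (TPM, a level scaled by transcript length). Mef2c was at 716, 717 and 754 CPM in the Slc13a4+/- mice and at 616, 615 and 729 CPM in the wild-type mice. Of the wild-type mice, 2 were below every Slc13a4+/- mouse, whereas Nas2Del_WT_1026 lay between them. Mef2c had a log2 fold change of 0.16 (SE 0.07, unadjusted p 0.0415), and the adjusted p of the edgeR quasi-likelihood test was 0.538. Emx1, a homeobox factor confined to the pallium in the mouse telencephalon, had the lowest level of the group at 17.1 TPM. Its values were 11.3, 11.2 and 11.1 CPM in the Slc13a4+/- mice and 12.2, 9.61 and 10.2 CPM in the wild-type mice, so that the wild-type mice spanned the Slc13a4+/- values. Tbr1, a T-box factor of deep-layer neurons, was at 47.9, 49.5 and 48.9 CPM against 43.3, 45.2 and 55.9 CPM in the wild-type mice. Again the lowest and the highest of the 6 values were both wild-type, and the log2 fold change of 0.02 (SE 0.09) had an adjusted p of 0.962 in edgeR.

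The LIM homeobox gene Lhx2 had a fold change of -0.04, as did Bhlhe22, a basic helix-loop-helix factor of cortical area identity. The related differentiation factors Neurod2 and Neurod6 had fold changes of -0.12 (SE 0.07) and -0.07 (SE 0.05). Over the 7 identity factors the median log2 fold change was -0.04, with 3 above and 4 below 0.

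The vesicular transporters load glutamate into synaptic vesicles. Slc17a7 (VGLUT1) is the form of most cortical and hippocampal excitatory neurons, and Slc17a6 (VGLUT2) is the form of thalamic, hypothalamic and brainstem neurons that is retained in fewer cortical cells. Slc17a7 was at 853, 868 and 917 CPM in the Slc13a4+/- mice and at 868, 801 and 918 CPM in the wild-type mice, with a mean level of 660 TPM. Slc17a6 was lower at 73.0 TPM and was found at 135, 137 and 124 CPM in the Slc13a4+/- mice against 139, 161 and 136 CPM in the wild-type mice. Only Nas2Del_Het_1025, at 137 CPM, reached into the wild-type range of Slc17a6, and the fold change was -0.14 (SE 0.07, edgeR unadjusted p 0.0786 and adjusted p 0.586). The ratio of Slc17a7 to Slc17a6 CPM within a mouse was 6.32, 6.32 and 7.41 in the Slc13a4+/- mice and 6.23, 4.97 and 6.76 in the wild-type mice. The difference of 0.696 in mean ratio gave p = 0.4 in a two-sided exact permutation test (adjusted over 3 within-gene or ratio measures, 0.9), in a design whose smallest possible p is 0.1.

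Genes of the upper layers had a median log2 fold change of 0.01, with 5 of 8 above 0. Lmo4, a LIM-only transcriptional cofactor, had the highest level at 234 TPM and one of the narrowest ranges of all members: 159, 149 and 162 CPM in the Slc13a4+/- mice and 159, 155 and 150 CPM in the wild-type mice, a 1.08-fold span. At the other end, Scnn1a, the alpha subunit of the epithelial sodium channel and a layer 4 marker in mice, had a mean of 1.17 TPM and the lowest counts of the list, 107 to 181 per mouse. It was at 1.91, 1.95 and 1.70 CPM against 1.62, 1.77 and 2.32 CPM in the wild-type mice, a 1.43-fold span in which the extremes were both wild-type.

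Rorb, a nuclear receptor of layer 4 neurons that is also present in thalamus, was at 82.9, 78.4 and 77.9 CPM in the Slc13a4+/- mice and at 69.3, 67.9 and 90 CPM in the wild-type mice. Of the wild-type mice, 2 were below and 1 was above every Slc13a4+/- mouse, and the fold change was 0.07 (SE 0.10). Otof, which encodes the calcium sensor otoferlin, was at 17.1, 19.7 and 20.0 CPM against 17.2, 15.6 and 18.1 CPM in the wild-type mice, with a fold change of 0.15 (SE 0.08) and an edgeR adjusted p of 0.586. The 2 higher Slc13a4+/- mice exceeded all wild-type mice, but Nas2Del_Het_1024 fell inside their range. Mdga1, a glycosylphosphatidylinositol-anchored protein that binds neuroligin-2 and limits synapse formation, was at 24.5, 25.9 and 24.9 CPM in the Slc13a4+/- mice and at 28.2, 25.9 and 28.3 CPM in the wild-type mice. The genotypes touched at 25.9 CPM, where the wild-type value was the higher only beyond the third digit. The fold change was -0.13 (SE 0.05) with an unadjusted p of 0.0200 and an edgeR adjusted p of 0.506. When the average transcript length entered the edgeR fit, the Mdga1 fold change was -0.11 (SE 0.14, unadjusted p 0.437). Its TPM overlapped between genotypes, at 7.54, 10.6 and 7.62 in the Slc13a4+/- mice against 8.34, 8.41 and 10.5 in the wild-type mice. Of the other upper-layer genes, Cux1 and Cux2 had fold changes of -0.01 and 0.01, and Rasgrf2, a Ras guanine nucleotide exchange factor, had 0.07 (SE 0.04).

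The 5 layer 5 genes had fold changes between -0.06 and 0.09 with a median of 0.02, and all 5 intervals lay within 1.2-fold. Pcp4, a small calmodulin regulator found in layer 5, hippocampal field CA2 and striatum, had the highest level per length of all 34 genes at 1320 TPM. Its values were 330, 302 and 306 CPM in the Slc13a4+/- mice and 308, 310 and 308 CPM in the wild-type mice. Fezf2, the zinc finger factor that specifies corticospinal neurons, was the lowest of the group at 20.0 TPM, with 18.5, 19.3 and 20.0 CPM against 21.4, 20.0 and 18.8 CPM. Neither gene separated the genotypes. Bcl11b, which acts downstream of Fezf2 and is also strong in striatum, and Etv1, an ETS factor, had fold changes of 0.00 (SE 0.07) and 0.04 (SE 0.05). For Lmo3, a LIM-only cofactor, the value was 0.09 (SE 0.06).

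Layer 6 and 6b genes had the lowest median of the 6 groups, -0.09, and 5 of the 6 were below 0. Ccn2, a secreted matricellular protein that marks layer 6b and the subplate remnant in mice, was at 36.2, 37.9 and 36.6 CPM in the Slc13a4+/- mice and at 44.5, 40.1 and 38.3 CPM in the wild-type mice. Every Slc13a4+/- mouse was below every wild-type mouse, and the wild-type values were the more scattered. The fold change was -0.15 (SE 0.06), with an unadjusted p of 0.0269 and an edgeR adjusted p of 0.518. It was -0.08 without Nas2Del_WT_1016, which had the highest Ccn2 level and was the only mouse with high Ddx3y. Without any other mouse it lay between -0.13 and -0.20.

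Nxph4, a neurexophilin of layer 6b neurons, had the lowest level of the group at 3.68 TPM and the widest span of all 34 genes, 1.45-fold. It was at 2.46, 2.55 and 2.71 CPM in the Slc13a4+/- mice and at 3.27, 2.94 and 2.26 CPM in the wild-type mice. Here Nas2Del_WT_1026 was the lowest of the 6 mice, the only member for which that was so. Rprm (reprimo), a cell cycle regulator that marks corticothalamic layer 6 neurons, was the highest of the group at 72.3 TPM, with 42.8, 45.5 and 47.5 CPM against 47.2, 43.9 and 46.1 CPM. Tle4, a Groucho-type corepressor of the same neurons, had a fold change of -0.07 (SE 0.04), and Nr4a2, an orphan nuclear receptor of layer 6b and the claustrum, had -0.10 (SE 0.06). Foxp2, a forkhead factor shared by layer 6 and striatal neurons, was the single one of the 6 above 0, at 0.06 (SE 0.06).

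Among the hippocampal genes C1ql2 had the largest difference of all members. C1ql2 is a secreted C1q-like protein of dentate granule cells that acts at mossy fibre synapses. It was at 8.07, 8.23 and 7.89 CPM in the Slc13a4+/- mice and at 9.76, 9.08 and 9.18 CPM in the wild-type mice, so all 3 Slc13a4+/- mice were lower. The fold change was -0.21 (SE 0.06, 95% interval -0.35 to -0.08), the unadjusted p 0.00698 and the edgeR adjusted p 0.499, and leaving out single mice moved the fold change between -0.17 and -0.23. Dsp, another granule cell gene of the list, encodes the cell junction protein desmoplakin and did not follow. It was at 7.47, 7.44 and 6.86 CPM against 7.66, 6.77 and 7.82 CPM, with a fold change of -0.03 (SE 0.08). Prox1, the homeobox factor that defines granule cells and is not on the list, had a fold change of -0.07 (SE 0.05) and an edgeR adjusted p of 0.662. Tdo2, a granule cell gene of low level that is also not on the list, went the other way. It was at 1.34, 1.58 and 1.32 CPM against 1.04, 1.06 and 1.27 CPM. Its fold change was 0.33 (SE 0.15, edgeR adjusted p 0.563).

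Nrgn (neurogranin), a calmodulin-binding protein of dendrites, was the highest of the hippocampal group at 713 TPM and was at 450, 446 and 453 CPM against 445, 410 and 453 CPM. Calb1 (calbindin), a calcium buffer that granule cells also carry, was at 168, 157 and 166 CPM in the Slc13a4+/- mice. In the wild-type mice it was at 156, 160 and 159 CPM, and the fold change was 0.04 (SE 0.04). Fibcd1, a fibrinogen-domain receptor of CA1, was at 32.5, 32.8 and 32.1 CPM against 34.5, 31.6 and 34.4 CPM. The narrowest ranges of all members were those of Lmo4 and Calb1, both 1.08-fold, and of Fibcd1 and Pcp4, both 1.09-fold. Wfs1, a membrane protein of the endoplasmic reticulum that marks CA1, had a fold change of 0.03 (SE 0.06).

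The widest separation in the list lay between 2 wild-type mice. Nas2Del_WT_1026 had the highest value of the 6 mice for 16 of the 34 members (47.1%) against 21.8% of all tested genes, and Nas2Del_WT_1018 had the lowest value for 15 (44.1%) against 17.6%. The median deviation of the members from their 6-mouse mean on the log2 scale was 0.08 in Nas2Del_WT_1026 and -0.07 in Nas2Del_WT_1018, whereas it was -0.02, -0.01 and 0.02 in the Slc13a4+/- mice. Summed over the 34 genes, the wild-type mice spanned 4020 to 4440 CPM and the Slc13a4+/- mice 4260 to 4400 CPM, inside the wild-type range. Median deviations in Nas2Del_WT_1026 were above 0 in the pallial, upper-layer, layer 5, layer 6 and hippocampal groups alike, from 0.05 in layers 6 and 6b to 0.11 in the upper layers. The 2 vesicular transporters went opposite ways. Slc17a7 shared the arrangement, with -0.12 in Nas2Del_WT_1018, its lowest mouse, and 0.08 in Nas2Del_WT_1026, its highest. Slc17a6 did not, with 0.22 and -0.03 in the same mice. Over the 6 mice, the SD of log2 CPM had a median of 0.085 for the members and for all tested genes. Among genes with a mean over 10 CPM it was 0.077 for the members and 0.061 for all.

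**Figure D2:**
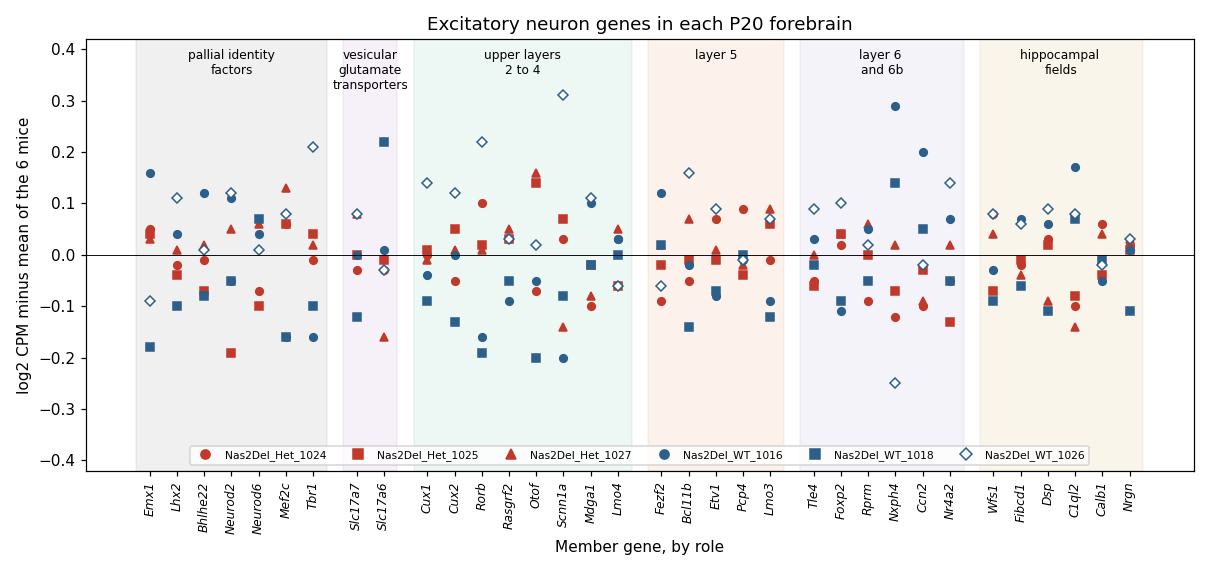
Level of each of the 34 genes in each mouse, as log2 CPM minus the mean of the 6 mice (vertical axis), with members grouped by role along the horizontal axis, Slc13a4+/- mice in red and wild-type mice in blue. The open diamonds of Nas2Del_WT_1026 are the highest points for 16 genes and the blue squares of Nas2Del_WT_1018 the lowest for 15, while the red points lie mostly between them.

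A second list of 28 pallial excitatory genes that are not members, among them Camk2a and Prox1, was examined in the same way. None was called by edgeR or DESeq2, their median log2 fold change was -0.04, and 7 were above and 21 below 0. Of the 17096 tested genes 8173 were above 0. Among the 10211 with a mean over 10 CPM, a level that most of the 28 exceeded, 4222 were. At an unadjusted p under 0.05 edgeR returned Nectin3, a cell adhesion molecule, as higher (0.13, SE 0.05, adjusted p 0.524) and Pou3f1, a POU factor of corticospinal neurons, as lower (-0.14, SE 0.05, adjusted p 0.524). Nas2Del_WT_1026 had the highest value for 13 of these 28 genes (46.4%, against 21.8% of all tested genes), but Nas2Del_WT_1018 had the lowest for only 5 (17.9%, against 17.6% of all tested genes and 44.1% of the members).

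Marker lists of other regions and cell types were set beside these values, since several members are also expressed in striatum or thalamus. The summed level of 9 striatal projection neuron genes was 983 to 1050 CPM in the Slc13a4+/- mice and 902 to 1060 CPM in the wild-type mice, and 7 thalamic genes summed to 492 to 544 CPM against 503 to 551 CPM. The median deviation of the striatal genes was 0.08 in Nas2Del_WT_1026 and -0.11 in Nas2Del_WT_1018, in the same direction as the members. In the same order of mice, it was 0.06 and -0.06 for the thalamic genes and 0.08 and -0.02 for the inhibitory neuron genes. Not every list was so arranged. The hypothalamic genes were at -0.17 and 0.12, the olfactory bulb genes at 0.64 and 0.49, and the pan-neuronal genes at 0.06 and 0.04. The 7 inhibitory neuron genes (857 to 903 against 874 to 945 CPM) and the 7 pan-neuronal genes (4830 to 4920 against 4810 to 4970 CPM) overlapped between genotypes. In contrast, the summed levels of 5 astrocyte genes (1200 to 1250 against 1280 to 1290 CPM), 5 microglial genes (248 to 256 against 265 to 269 CPM), 5 endothelial genes (168 to 180 against 185 to 196 CPM) and 5 choroid plexus genes (385 to 449 against 466 to 472 CPM) were lower in every Slc13a4+/- mouse. Without the most abundant gene of each list, the astrocyte and microglial sums still separated the genotypes (520 to 540 against 554 to 574 CPM, and 149 to 156 against 163 to 167 CPM), the endothelial sums met at 130 CPM to 3 digits, and the choroid plexus sums overlapped (31.3 to 37.0 against 35.7 to 36.4 CPM), so the separation of the choroid plexus sums was that of Ttr. The astrocyte genes did not all move together. Aldh1l1 was higher in every Slc13a4+/- mouse (fold change 0.07, SE 0.04), although the genotypes met at 69.1 CPM to 3 digits. Median deviations of the astrocyte genes overlapped, at 0.01, -0.03 and -0.06 in the Slc13a4+/- mice against 0.00, 0.03 and 0.04 in the wild-type mice. The 6 oligodendrocyte genes all had fold changes below 0, with a median of -0.14, at 8010 to 9340 CPM against 9090 to 10100 CPM. The 6 olfactory bulb genes, also all below 0 (median -0.44), summed to 16.1 to 22.7 CPM against 19.2 to 28.9 CPM. The 7 hypothalamic genes summed to 49.5 to 54.1 CPM against 44.0 to 56.7 CPM. Of 7 cerebellar and hindbrain genes 3 were tested, and Gabra6 and Hoxb5 were at 0 in at least 1 mouse. All 7 summed to 17.1 to 20.2 CPM against 17.4 to 19.9 CPM. Most of that was Cbln1, without which the sums were 1.15 to 2.51 against 1.03 to 1.89 CPM. No single gene of these marker lists was called by edgeR, and DESeq2 called 1 choroid plexus gene, the transthyretin gene Ttr (adjusted p 0.0921). No gene of the other lists was at 0 in any mouse. Their part in the differences between mice was not tested.

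**Figure D3:**
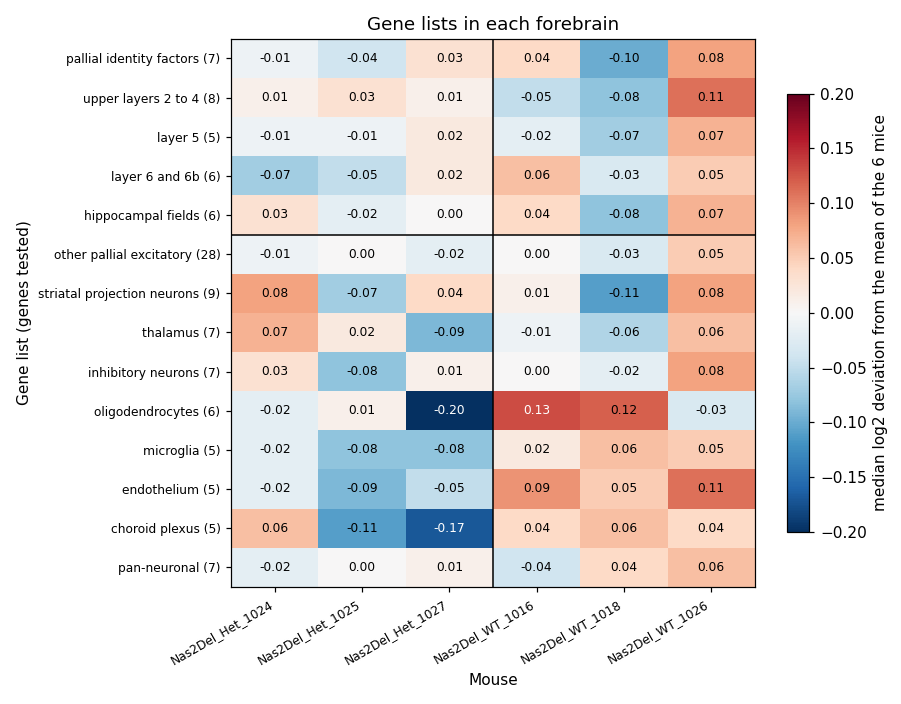
Median log2 deviation from the 6-mouse mean of each gene list (rows, number of genes tested in parentheses) in each mouse (columns, Slc13a4+/- left and wild-type right of the vertical line); the horizontal line separates the member groups from the lists of other genes, the colour scale runs from -0.20 to 0.20, and the vesicular transporters are not plotted. Of the excitatory neuron rows plotted, those for layers 6 and 6b are highest in Nas2Del_WT_1016 and lowest in Nas2Del_Het_1024 and the others are highest in Nas2Del_WT_1026 and lowest in Nas2Del_WT_1018, and the striatal row stands at 0.08 and -0.11 and the thalamic row at 0.06 and -0.06 in the same 2 mice.

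Because Nas2Del_WT_1026 stood apart, each count was also computed without it. This mouse was the highest for 16 of the 34 members, so leaving it out lowers the wild-type mean of those members. Higher values in the Slc13a4+/- mice and the calls that follow are therefore in part a product of that choice, with fewer wild-type mice. Among the remaining 5 mice edgeR called 2 of the 34 members (5.88%) against 1.29% of all tested genes. Mef2c was 0.25 higher on the log2 scale in the Slc13a4+/- mice (SE 0.03, adjusted p 0.0588) and Rorb 0.22 higher (SE 0.04, adjusted p 0.0916). Over all alternatives the adjusted p ran from 1.85e-05 to 0.860 for Mef2c and from 0.000873 to 1 for Rorb. Without this mouse 12 members had an unadjusted p under 0.05 (35.3%) against 18.0% of all tested genes: Tbr1, Rasgrf2, Otof, Etv1, Lmo3 and Foxp2 joined Mef2c and Rorb on the higher side, and Slc17a6 and Nxph4 joined Ccn2 and C1ql2 on the lower side, while Mdga1 was no longer among them (edgeR unadjusted p 0.0576). In a DESeq2 fit of the same 5 mice, added after the data had been seen, 4 of 31 members with an adjusted p were called (12.9%) against 6.54% of all tested genes. These were Mef2c (0.20, DESeq2 adjusted p 1.85e-05), Rorb (0.23, 0.000873), Ccn2 (-0.21, 0.0559) and Slc17a6 (-0.20, 0.0990). Over all alternatives the adjusted p of Ccn2 ran up to 0.858 and that of Slc17a6 up to 0.901. Leaving out any of the other 5 mice instead gave no called member.

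Transcript estimates within the genes were examined for members whose annotated products differ in kind. Cux1 is the clearest case. The gene lies at chr5:136248135-136567490 on the minus strand of GRCm38 and encodes both CUX1, a transcription factor with cut repeats and a homeodomain that marks upper-layer neurons, and CASP, a Golgi membrane protein which shares the amino-terminal coiled coil but lacks the DNA-binding domains. Cux1-201 (24 exons, 1426 residues) and Cux1-211 (23 exons, 676 residues) were the major transcripts of the 2 kinds. They share exons down to chr5:136314307 and then splice to different exons. The following stretches, read from the GENCODE M21 transcripts, show that branch point, with the last 30 shared bases in lower case and the first 90 bases of each transcript's own coding sequence in capitals, starting at chr5:136313008 for Cux1-201 and at chr5:136258040 for Cux1-211.
Cux1-201: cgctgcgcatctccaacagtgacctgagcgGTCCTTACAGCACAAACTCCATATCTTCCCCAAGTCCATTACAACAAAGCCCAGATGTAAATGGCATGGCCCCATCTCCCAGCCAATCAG
Cux1-211: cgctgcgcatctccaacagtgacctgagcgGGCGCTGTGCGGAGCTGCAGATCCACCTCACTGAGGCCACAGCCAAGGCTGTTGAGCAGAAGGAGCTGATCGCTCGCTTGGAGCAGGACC
Of these 2 transcripts, Cux1-201 holds the homeobox, downstream of the branch point. A 180-base stretch of it follows (coding sequence between chr5:136275448 and chr5:136279590, minus strand, joined across an intron), with the codons of the WFHNYR motif in the recognition helix in capitals. This motif was searched as WF, any residue, N, any residue and R. It divided the 11 Cux1 transcripts with an annotated coding sequence, called coding here, into 4 that carry it and 7 that do not. The 7 include Cux1-203 and Cux1-213, which are annotated for nonsense-mediated decay and held 0.12% and 0.18% of the Cux1 counts on average.
Cux1-201 homeobox: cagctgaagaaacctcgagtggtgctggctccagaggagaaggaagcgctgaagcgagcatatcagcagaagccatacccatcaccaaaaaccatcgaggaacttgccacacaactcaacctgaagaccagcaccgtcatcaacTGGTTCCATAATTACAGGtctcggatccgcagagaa

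Coding transcripts without the homeodomain took 50.5, 49.0 and 50.6% of the Cux1 counts in the Slc13a4+/- mice and 52.0, 54.7 and 46.2% in the wild-type mice, and non-coding transcripts a further 0.7 to 1.1%. Per length they were the more abundant kind, at 53.2 to 57.2 TPM against 11 to 15.6 TPM for the homeodomain transcripts, so about equal counts came from transcripts of unequal length. The gene-level Cux1 value therefore does not measure the upper-layer factor alone. Homeodomain transcripts were at 12.6, 13.7 and 12.9 TPM in the Slc13a4+/- mice and at 12.3, 11 and 15.6 TPM in the wild-type mice, with the same mouse, Nas2Del_WT_1026, highest and the same mouse, Nas2Del_WT_1018, lowest as for many members. Neither the share (difference of means -0.933 percentage points, two-sided exact permutation p = 0.8) nor the homeodomain level (0.127 TPM, p = 0.9) differed beyond the spread between mice, and both adjusted values were 0.9 with a smallest possible p of 0.1. These are estimates of the quantifier from reads that often fit several transcripts.

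**Figure D4:**
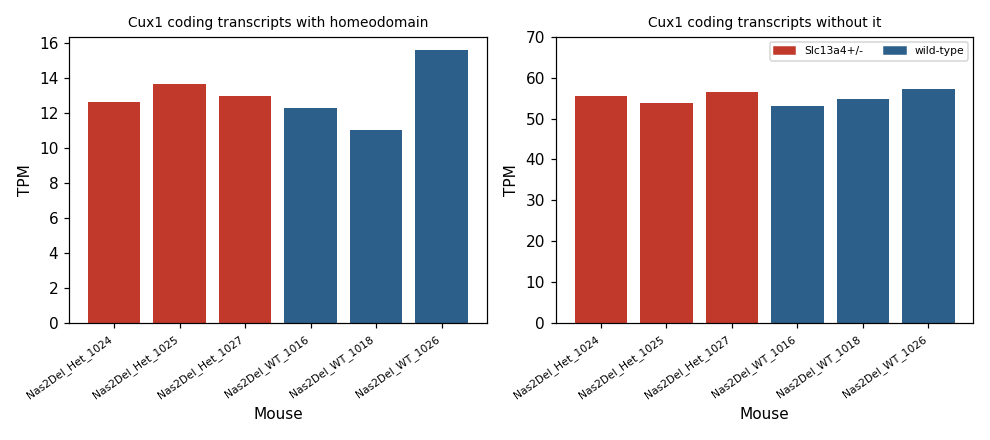
TPM of Cux1 coding transcripts in each mouse, summed over the 4 with the homeodomain motif (left) and the 7 without it (right); each bar is 1 mouse, Slc13a4+/- in red and wild-type in blue, and the vertical scales differ between the panels. The left bars run from 11 TPM (Nas2Del_WT_1018) to 15.6 TPM (Nas2Del_WT_1026), and the right bars from 53.2 to 57.2 TPM.

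Other members also drew on more than 1 transcript. In Cux2, the paralog of Cux1, 95.8, 95.6 and 95.4% of the counts of the Slc13a4+/- mice and 95.4, 94.2 and 95.2% of those of the wild-type mice were on homeodomain transcripts. The short coding transcripts of Cux2 without the homeodomain held 1.6 to 2.8% of the counts but stood at 13.7, 11.7 and 14.7 TPM in the Slc13a4+/- mice and at 16.6, 17.3 and 16.8 TPM in the wild-type mice, lower in all 3 Slc13a4+/- mice. This was seen while the transcripts were being inspected and was not tested, and when the average transcript length entered the fit the Cux2 fold change of 0.01 became -0.11, in DESeq2 and in edgeR. Rasgrf2 counts came mainly from Rasgrf2-205, a 15-exon transcript that starts inside the gene, with 67.5 to 69.8% in the 6 mice. For Mef2c, the single transcript Mef2c-212 held 74.6 to 77.1% in the 6 mice. In 17 members, 7 of which have a single transcript in the files, the leading transcript held over 94% of the counts averaged over the mice.

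Promoter sequences were available for 27 of the 34 genes, as 37 windows of 300 bases (250 before to 50 after the start) in RefSeq annotation of GRCm38.p6. Their median GC content was 63.7%, against 52.7% over 32851 promoters. The 2 windows that follow belong to the members with the lowest unadjusted p on either side, C1ql2 (chr1:120340332-120340631, plus strand, 67.3% GC) and Mef2c at the start of Mef2c-212 (chr13:83573357-83573656, plus strand, 48.3% GC), and capitals mark CpG dinucleotides.
C1ql2 promoter: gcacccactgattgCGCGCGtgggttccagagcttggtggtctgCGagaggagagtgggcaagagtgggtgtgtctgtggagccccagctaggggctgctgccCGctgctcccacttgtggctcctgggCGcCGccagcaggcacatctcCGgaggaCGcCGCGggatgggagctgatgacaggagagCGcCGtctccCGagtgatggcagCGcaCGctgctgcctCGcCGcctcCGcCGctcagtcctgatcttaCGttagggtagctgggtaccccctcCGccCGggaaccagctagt
Mef2c promoter: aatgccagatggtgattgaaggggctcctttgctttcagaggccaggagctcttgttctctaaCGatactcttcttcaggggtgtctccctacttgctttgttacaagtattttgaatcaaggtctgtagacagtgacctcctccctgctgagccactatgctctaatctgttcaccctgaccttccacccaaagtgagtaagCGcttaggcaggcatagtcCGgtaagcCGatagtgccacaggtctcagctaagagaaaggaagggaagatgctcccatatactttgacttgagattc
The windows held 23 and 4 CpG dinucleotides, one being rich in them and the other not. The search covered 4 motifs on both strands. The E-box form CAGATG, bound by NEUROD-type factors, was present in 8 of the 37 windows (21.62%, in Cux2, Etv1, Lhx2, Mef2c, Neurod2, Nrgn, Slc17a6 and Wfs1) against 17.15% of all promoters. The T-box sequence AGGTGTGA was present in 1 window (Lmo3) against 1.28% of all promoters. For MEF2 a loose pattern was searched, as CTA, any 4 bases and TAG. This loose pattern and the cAMP-response sequence TGACGTCA were in none of the 37 windows, against 3.69% and 1.79% of all promoters. The 3.69% is the rate of the loose pattern and not of the MEF2 consensus. A match describes the letters of the window and not binding.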

How the data were processed

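RNA-Seq libraries were prepared from rRNA-depleted total RNA with a stranded kit and sequenced as paired ends. The authors quantified transcripts with Salmon 1.2.0 and deposited, for each of 6 mice, estimated counts, transcripts per 1000000 (TPM) and the length and effective length of 117135 transcripts, with correction for GC bias. The transcript set of the index was not given in the sources used here. Of these transcripts 115973 matched GENCODE M21 (GRCm38), and the other 1162 held 0.62 to 0.645% of counts and were left out. The expected counts as deposited were summed per gene, rounded and tested with edgeR 4.0.16 in R 4.3.3 (filterByExpr, TMM, quasi-likelihood test, Benjamini-Hochberg adjustment over 17096 genes, threshold 0.1), with 3 mice per genotype. Log2 CPM used a prior count of 0.5. TPM as deposited by the authors was used to compare levels between genes, and whole-gene TPM is a sum over transcripts.

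Alternatives were DESeq2 1.42.0 with and without average transcript lengths, RLE size factors, length offsets in edgeR, no filter on low counts, no retained-intron transcripts, and leaving out each mouse. Animal numbers did not pair the genotypes. Scripts were tested on simulated counts.

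The members and gene lists were chosen with earlier results of these data known. Per-mouse values are printed for members with an unadjusted p under 0.05 in edgeR, those with the 6 widest and 3 narrowest ranges, and the highest and lowest TPM of each role. From the other lists, members with an unadjusted p under 0.05 could be named, and defining markers.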

Additional observations from a re-analysis of the deposited data

How the results depend on the processing

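The number of genes called was 1 in edgeR and with RLE size factors or without retained-intron transcripts, 0 with length offsets, 147 without a filter on low counts, 55 in DESeq2 with size factors, 86 in DESeq2 with length offsets, and 1 to 223 when single mice were left out, the highest without Nas2Del_WT_1026, where DESeq2, in a fit chosen after seeing the data, called 720. The members called remained 0 in every fit of the 6 mice, were 0 to 2 without single mice and 4 in that DESeq2 fit. Members with an unadjusted p under 0.05 numbered 4 in edgeR, 7 without a filter, 2 to 12 without single mice and 9 in the DESeq2 fit without Nas2Del_WT_1026. The share over all tested genes is given only for edgeR, at 9.15% with the 6 mice and 18.0% without Nas2Del_WT_1026, so the other counts are not compared with a background. Members whose genotypes did not overlap rose from 3 to between 4 and 15 when 1 mouse was left out, where fewer mice overlap less readily. The share of all tested genes without overlap is given only for the 6 mice (15.0%), so the rise cannot be read as a trait of the members. The median log2 fold change lay between -0.05 and 0.03 without single mice, the lowest without Nas2Del_WT_1018.

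Of 442 member fold changes in the alternatives, 45 turned their sign, in 16 members, none of which had a fold change over 0.10 in size in the edgeR fit of the 6 mice. With length offsets in DESeq2 the turned values were 0.01 for Lhx2, -0.11 for Cux2, 0.00 for Etv1, -0.01 for Wfs1 and 0.00 for Calb1, and the same to 2 decimals in edgeR. Without retained-intron transcripts Cux1 was 0.00 and Bcl11b 0.01, and without a filter Bcl11b was 0.00. In the DESeq2 fit without Nas2Del_WT_1026 they were 0.05 for Lhx2, 0.02 for Cux1, -0.07 for Cux2, 0.13 for Scnn1a, 0.00 for Lmo4, 0.09 for Bcl11b, 0.01 for Nr4a2, 0.01 for Dsp and -0.02 for Calb1. Leaving out single mice, the fold changes that turned spanned -0.09 to 0.01 for Lhx2, -0.09 to 0.02 for Bhlhe22, -0.05 to 0.14 for Tbr1, -0.02 to 0.08 for Slc17a7, -0.05 to 0.07 for Cux1, -0.05 to 0.07 for Cux2, -0.14 to 0.13 for Scnn1a, -0.01 to 0.05 for Lmo4, -0.07 to 0.08 for Bcl11b, -0.02 to 0.04 for Pcp4, -0.05 to 0.03 for Rprm, -0.01 to 0.08 for Wfs1 and -0.09 to 0.01 for Dsp. The causes were not tested.

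No paired analysis was made, because the replicate numbers name single mice and the labels do not say which mice shared a litter. With 3 mice per genotype, the 95% intervals of 10 members reached beyond 1.2-fold, and an adjusted p above the threshold does not show that a gene was equal. Depth limited Scnn1a most, at 107 to 181 counts per mouse.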
